A study of Mus musculus with 2 samples.

Results

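Divergent promoters are stretches of DNA from which 2 genes are read in opposite directions, away from each other. The members described here are DNase I hypersensitive sites of mouse cerebral cortex that lie between 2 protein-coding start sites of this kind, at most 1000 bp apart. They were found by merging the peaks of 2 mice, keeping the sites with a peak in each, and taking those on chromosomes 1 to 19 and X that overlap the interval between the starts in the mm10 annotation (GENCODE M21). Of 82968 merged sites, 43755 had a peak in both mice, and 1096 of these (2.50%) are members. The annotation holds 1096 divergent coding pairs, by coincidence the same number, made of 2156 of 21670 coding genes. A member lay at 976 of the pairs, which hold 1923 genes. A single member served 830 pairs, 142 pairs had 2 and 4 pairs had 3, and 30 members lay between the starts of 2 pairs each.

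The series is DNase-seq, in which the enzyme DNase I cuts accessible chromatin and the cut ends are sequenced, of left cerebral cortex. It was taken from 2 males at the age of 36 days. Both are B6CASTF1/J, the first-generation hybrid of C57BL/6J and CAST/EiJ, untreated as far as the labels say, and each gave 1 library, called replicate 1 and replicate 2 here. The labels number the mice as separate males but carry the same donor entry for both. There is 1 group, so no test across conditions or animals was possible, and every comparison is between classes of sites within a mouse, given for each mouse. Cortex is a mixture of neurons, glia and vessel cells, and a lower peak in fewer cells cannot be told apart from a lower peak in every cell. Of 24 neuronal and synaptic marker genes, 22 had a shared site within 1 kb of a start, as against 56.2% of all coding genes and 4 of 14 genes of other tissues. The markers of the other cell types of cortex had fewer, with 2 of 14 for interneurons, 4 of 10 for astrocytes, 4 of 12 for oligodendrocytes, 3 of 10 for microglia and 2 of 10 for endothelial and mural cells.

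In mammals, many genes of basic cell upkeep are arranged as divergent pairs whose promoters are CpG islands, stretches that keep the CpG dinucleotide that is lost elsewhere in the genome. The chromatin between the starts is kept free of nucleosomes by sequence and by bound factors such as NF-Y, Sp1, NRF1 and ETS proteins. RNA polymerase loads at separate core promoters on the flanks of that stretch. Most promoters of single genes also give rise to short unstable transcripts in the reverse direction, so the class described here differs from them in what the reverse transcript encodes.

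The sequence between the starts is short. Among the 976 pairs with a member, the closest starts of the 2 genes were a median 117.5 bp apart (quartiles 64 and 235.75 bp, range 1 to 987 bp), and in 801 pairs (82.1%) they were at most 300 bp apart. The next sequences are those of the pairs with the highest peaks whose interval is at most 300 bp long, holds no annotated exon and touches the peak. They show what such an interval contains. Each is the mm10 (GRCm38.p6) plus strand from the base after the start of the leftward gene, named first, to the base before the start of the rightward gene. Capitals mark the CCAAT box (CCAAT, read by NF-Y), the GC box (GGGCGG, read by Sp and Klf proteins) and the ETS site (CCGGAAG), on either strand. The mice carry CAST alleles too, whose bases may differ from these.
Ruvbl2/Gys1 (chr7:45434710-45434843): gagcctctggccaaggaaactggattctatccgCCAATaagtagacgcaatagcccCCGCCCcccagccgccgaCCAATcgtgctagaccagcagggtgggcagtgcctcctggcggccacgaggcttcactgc
Fbh1/Ankrd16 (chr2:11777583-11777875): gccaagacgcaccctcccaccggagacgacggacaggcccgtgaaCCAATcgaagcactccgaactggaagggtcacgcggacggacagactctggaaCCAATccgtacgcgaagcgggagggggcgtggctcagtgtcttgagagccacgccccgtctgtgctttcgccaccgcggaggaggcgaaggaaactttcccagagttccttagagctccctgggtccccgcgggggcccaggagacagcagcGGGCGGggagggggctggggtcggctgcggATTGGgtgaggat
Aamp/Pnkd (chr1:74284739-74284929): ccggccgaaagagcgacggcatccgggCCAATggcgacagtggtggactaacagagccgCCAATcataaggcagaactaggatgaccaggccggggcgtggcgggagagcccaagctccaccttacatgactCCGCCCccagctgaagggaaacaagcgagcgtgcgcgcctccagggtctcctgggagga
Usp37/Cnot9 (chr1:74505807-74506057): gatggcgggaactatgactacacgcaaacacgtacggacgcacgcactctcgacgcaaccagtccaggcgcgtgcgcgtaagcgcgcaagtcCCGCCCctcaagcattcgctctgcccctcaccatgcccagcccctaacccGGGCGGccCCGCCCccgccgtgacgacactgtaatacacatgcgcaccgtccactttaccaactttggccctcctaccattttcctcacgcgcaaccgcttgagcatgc
Tbccd1/Dnajb11 (chr16:22857670-22857844): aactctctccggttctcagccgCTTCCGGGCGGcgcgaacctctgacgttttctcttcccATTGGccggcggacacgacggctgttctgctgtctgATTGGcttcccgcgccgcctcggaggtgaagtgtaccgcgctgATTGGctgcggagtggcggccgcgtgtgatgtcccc
Rnft2/2410131K14Rik (chr5:118245117-118245226): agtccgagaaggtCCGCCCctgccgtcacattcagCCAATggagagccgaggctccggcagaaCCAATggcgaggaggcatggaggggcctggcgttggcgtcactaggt

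The 6 intervals carried 3, 4, 3, 3, 5 and 3 matches in that order, and in Tbccd1/Dnajb11 the ETS match overlaps a GC box. Their GC content ran from 62.9% in Usp37/Cnot9 to 66.6% in Fbh1/Ankrd16. In footprints, which are short runs of bases protected from cutting inside a peak, lay all 3 GC boxes of Usp37/Cnot9 in both mice. The CCAAT boxes of Ruvbl2/Gys1 at positions 34 and 75 of the interval lay in no footprint in either mouse, while its GC box at position 57 lay in one in both.

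Ruvbl2/Gys1 had the highest mean peak of all pairs. Ruvbl2 encodes an ATPase of chromatin remodelling complexes and Gys1 the muscle form of glycogen synthase. The peak height was 12.3 in replicate 1 and 15.0 in replicate 2, with a mean of 13.6 ± 1.89 (SD, n = 2 mice). Heights are the authors' signal, read as cuts scaled to library depth. Acin1/1700123O20Rik followed with 15.2 and 11.4, and Fbh1/Ankrd16, whose first gene encodes a DNA helicase, with 12.1 and 13.8. Tbc1d17/Akt1s1, the latter an inhibitor of the mTORC1 kinase complex, had 11.8 and 12.2. Aamp/Pnkd had 10.5 and 13.4, and Usp37/Cnot9, a deubiquitinase and a subunit of the CCR4-NOT deadenylase, had 13.2 and 10.3. The order of these pairs differed between the mice, and the spread between the mice within a pair was as large as the gaps between neighbouring pairs. The remaining 4 of the 10 highest pairs were Kcnab2/Nphp4, Tbccd1/Dnajb11, Fam192a/Rspry1 and Rnft2/2410131K14Rik. All 10 reached at least 10.5 in replicate 1 and 10.2 in replicate 2. Kcnab2, a subunit of voltage-gated potassium channels, stood at 12.6 and 10.7, but its peak lay 386 and 406 bp to the left of the midpoint of the closest starts and covered neither start.

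At the low end, Gm9922/Lmo7 had 0.50 in replicate 1 and 0.406 in replicate 2. Lrrc63/Lcp1 had 0.943 and 0.660, where Lcp1 encodes an actin-bundling protein of white blood cells. Zfp944/Zfp758 had 1.20 and 0.557, and Plgrkt/Cd274, the latter the immune checkpoint ligand PD-L1, had 1.04 and 0.764. Spata1/Gng5 had 1.34 and 0.543. The 10 highest and the 5 lowest pairs did not overlap in either mouse, as their choice by height fixes.

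Divergent coding promoters had the highest median peaks of the 5 classes of sites compared. The median height of the 1096 members was 6.02 in replicate 1 (quartiles 4.18 and 7.85) and 3.68 in replicate 2 (quartiles 2.34 and 5.56). Coding promoters with 1 start site served as the comparison. These are the 19178 coding starts with no other coding start within 1000 bp, of which 3899 (20.3%) had a shared site in the 117 bp upstream, 3902 sites in all. Their median heights were 4.00 and 2.19, so the members were 1.51 and 1.68 times as high, a mean ratio of 1.59 ± 0.124 (SD, n = 2 mice). A median member rested on 964 and 536 cuts as inferred from the height steps, so counting alone gives an error of 3.22% and 4.32% of the height. Such errors, and the intervals below, cover counting only.

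**Figure D1:**
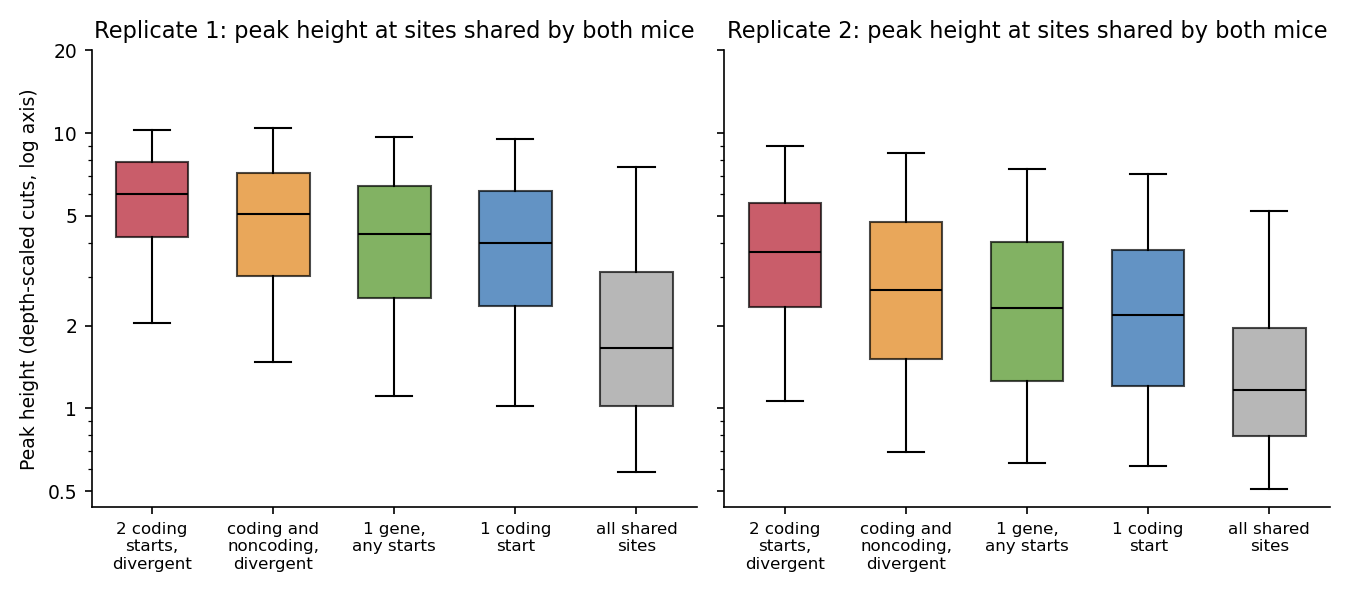
Peak height on a log axis for each class of site in replicate 1 (left) and replicate 2 (right); the line in a box is the median, the box the quartiles and the whiskers the 5th and 95th percentiles over sites. The medians of divergent coding pairs, 6.02 and 3.68, stand above those of the other classes in both mice, while the boxes overlap.

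The heights of the classes overlapped widely, and the size of the difference depended on the class set beside the members. Where a coding start was divergent from a noncoding start at most 1000 bp away (991 sites), the median heights were 5.09 and 2.69. The coding pairs were 1.18 and 1.37 times as high. Promoters of 1 gene with any number of its own starts and no other coding gene within 1000 bp (9865 sites, among them sites of the class with 1 start) had 4.30 and 2.32, and the coding pairs were 1.40 and 1.59 times as high. All shared sites together had medians of 1.66 and 1.17. Of the members, 52.7% were among the highest 10% of shared sites in replicate 1 (95% Wilson interval 49.8 to 55.7%) and 50.6% in replicate 2 (47.7 to 53.6%). The background is 10% in each mouse, as the choice of the highest 10% fixes. The shares for coding starts divergent from a noncoding start were 40.1% and 37.6%, and those for promoters with 1 start site 28.2% and 26.7%. These ratios have no test across animals, since there are 2 mice of 1 group, but both mice gave each of them the same direction.

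Base composition moves with peak height in these libraries, and the members were set beside promoters of like composition. CpG observed over expected, taken over 500 bp, had a median of 0.839 at members, 0.790 at promoters with 1 start site and 0.363 at all shared sites. It was above 0.6, the usual mark of a CpG island, at 92.9%, 79.5% and 30.4% of them. GC content was 62.8% at members and 63.0% at promoters with 1 start site. Coding starts divergent from a noncoding start had a median CpG ratio of 0.846, with 89.3% above 0.6, and a GC content of 65%. High CpG was thus not particular to coding pairs. Within 5 bins of CpG observed over expected, members were 1.26 to 2.08 times as high as promoters with 1 start site in replicate 1 and 1.41 to 1.67 times in replicate 2. Within 5 bins of GC content the ratios were 1.35 to 1.88 and 1.47 to 2.06. Against coding starts divergent from a noncoding start, the ratios in the CpG bins were 1.15 to 1.79 and 1.25 to 1.74. The lowest CpG bin, up to 0.4, held only 13 members.

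The number of annotated starts also varies among pairs. In 192 pairs each gene had a single start in reach, and the highest site of such a pair had a median height of 5.64 and 3.797, as against 6.41 and 4.03 at the 784 pairs with several start combinations. On this count the pairs with single starts stood 1.41 and 1.73 times as high as promoters with 1 start site.

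Width and the share with a footprint differed less between the classes than height. The median peak width was 260 bp at members and 260 bp at promoters with 1 start site in replicate 1, and 240 against 220 bp in replicate 2. At least 1 footprint lay in 98.3% of members in replicate 1 (1077 of 1096, interval 97.3 to 98.9%) and in 98.5% in replicate 2 (1080, interval 97.6 to 99.1%). The background over all shared sites was 95.4% and 96.0%. For promoters with 1 start site the shares were 99.1% and 98.6%, so the difference was -0.79 percentage points in replicate 1 and -0.02 in replicate 2, and its sign depended on the settings. The mean number of footprints per site was 5.56 and 5.45 at members, and 5.32 and 4.73 at promoters with 1 start site. Coding starts divergent from a noncoding start had 5.60 and 5.21 footprints per site, and median peak widths of 280 and 240 bp.

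In each mouse, the highest peak spanned both starts in most pairs. The highest peak of a pair covered both of its closest starts in 588 of 976 pairs in replicate 1 (60.2%) and in 537 in replicate 2 (55.02%), and in 489 pairs (50.1%) it did so in both mice. It covered the leftward start alone in 138 and 139 pairs, the rightward start alone in 149 and 163, and neither in 10.3% and 14.0% of the pairs. The peak midpoint lay a median 50.5 bp in replicate 1 and 42 bp in replicate 2 from the midpoint between the starts, in either direction. It lay between the starts in 555 and 618 pairs (56.9% and 63.3%), past the leftward start in 208 and 188 and past the rightward start in 213 and 170. Seen from each gene, the peak midpoint lay upstream of the start in 78.7% and 78.2% of leftward and rightward genes in replicate 1 and in 80.7% and 82.6% in replicate 2. At promoters with 1 start site it lay upstream in 63.9% and 75.6%. Sites of both classes were chosen by overlap with sequence upstream of a start, so the position of the midpoint is partly set by that choice. A pair was searched over up to 1000 bp and a single start over 117 bp, so these shares are not like for like.

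The layout differed with the distance between the starts. At most 100 bp apart (419 pairs), 85.9% and 82.1% of the peaks covered both starts. The share was 67.0% and 61.3% in the next bin, up to 200 bp, and 36.4% and 24.8% in that up to 300 bp, and 0 beyond 500 bp. The median member peak was 260 bp wide in replicate 1 and 240 bp in replicate 2, so peak width itself limits this share at larger distances. Pairs with more than 1 member made up 9.31% of the closest bin and 45.5% of the farthest. The interval searched also widens with distance. Its median width was 723 bp at pairs with more than 1 member and 279 bp at pairs with 1. Median heights were 5.90 and 3.27 at most 100 bp apart and 6.85 and 5.12 in the bin from 300 to 500 bp, and 6.30 and 4.39 beyond. The quartiles of neighbouring bins overlapped in both mice. The median GC content of these bins went from 64% in the closest to 61.4% in the farthest. In 146 pairs with more than 1 member, the median of the highest was 5.54 and that of the next was 3.11 (mean of the mice).

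**Figure D2:**
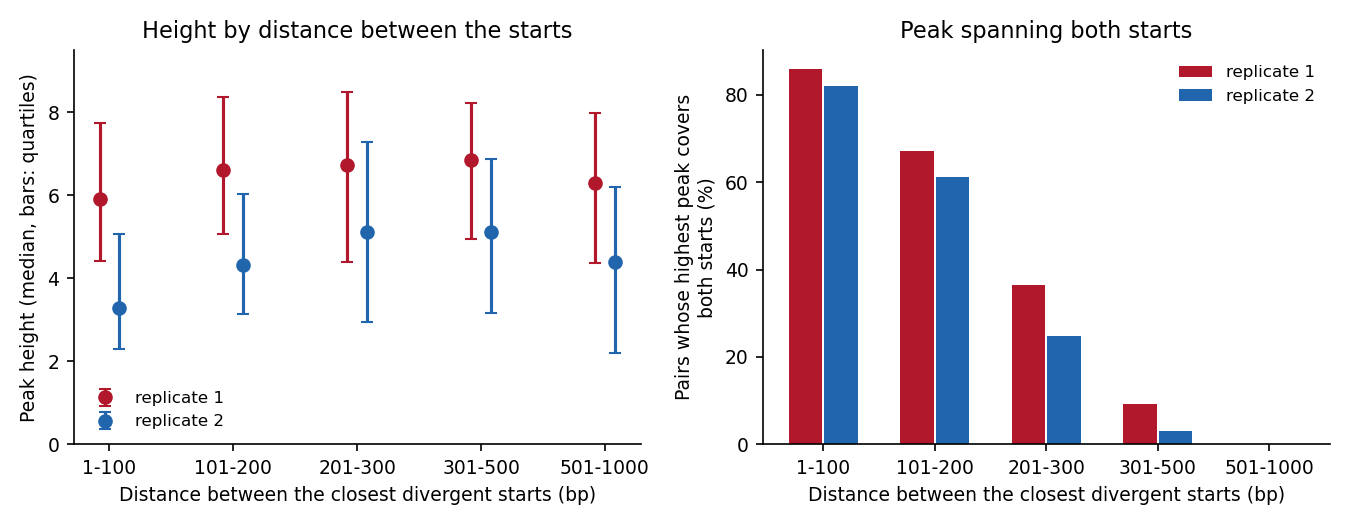
Left, the median peak height of a pair with its quartiles (bars) and right, the share of pairs whose highest peak covers both starts, against the distance between the closest starts in bp, for replicate 1 (red) and replicate 2 (blue). Coverage of both starts is 85.9% and 82.1% in the closest bin and 0 in the farthest, while the quartiles of height overlap across all bins.

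At the 2 ends of this range, Bag4/Lsm1, Dcun1d3/Lyrm1 and Arfrp1/Zgpat have starts 1 bp apart. Bag4, a co-chaperone of Hsp70, and Lsm1, a subunit of the RNA decapping activator, shared a peak of 9.19 and 4.17 that covered both starts. Arfrp1/Zgpat had 5.47 and 2.02. At Dcun1d3/Lyrm1, which has 12 start combinations, the highest peak (6.78 and 5.06) lay 471 and 441 bp to the left of the closest starts. At the far end, Btf3l4/Txndc12 with starts 987 bp apart had 4.36 and 2.90, and Asphd1/Sez6l2 at 981 bp had 3.14 and 1.69. Each of these had 2 members. Just inside the 1000 bp limit, 12 of 14 pairs in the last 100 bp had a shared site, with median heights of 5.43 and 4.39. Just outside it, 10 of 13 pairs in the next 100 bp had one, with 4.75 and 2.20.

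Accessibility reached past the starts into the genes. The authors' list of false discovery rates gives each base at which the cut rate stands out. At a rate of 0.001 or less, a mean 96.7% of the interval between the closest starts was called in replicate 1 and 93.9% in replicate 2. The whole interval was called in 906 and 862 of the 973 pairs with a base between the starts. These pairs were chosen for a peak of both mice between their starts, and the rates come from the same libraries. High shares in the interval are thus largely set by that choice. Of the first 500 bp of the leftward gene, a mean 378 bp were called in replicate 1 and 267 bp in replicate 2. For the rightward gene these were 384 and 269 bp. Left and right are set by the genome's strands, so near-equal means over pairs say nothing of balance within a pair. The leftward gene had more bases called in 389 of 976 pairs in replicate 1 and in 465 in replicate 2, and the rightward gene in 430 and 473. At promoters with 1 start site, the 500 bp upstream had 332 and 263 bp called, and the 500 bp into the gene 391 and 219 bp. There the downstream side was longer in replicate 1 and the upstream side in replicate 2.

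**Figure D3:**
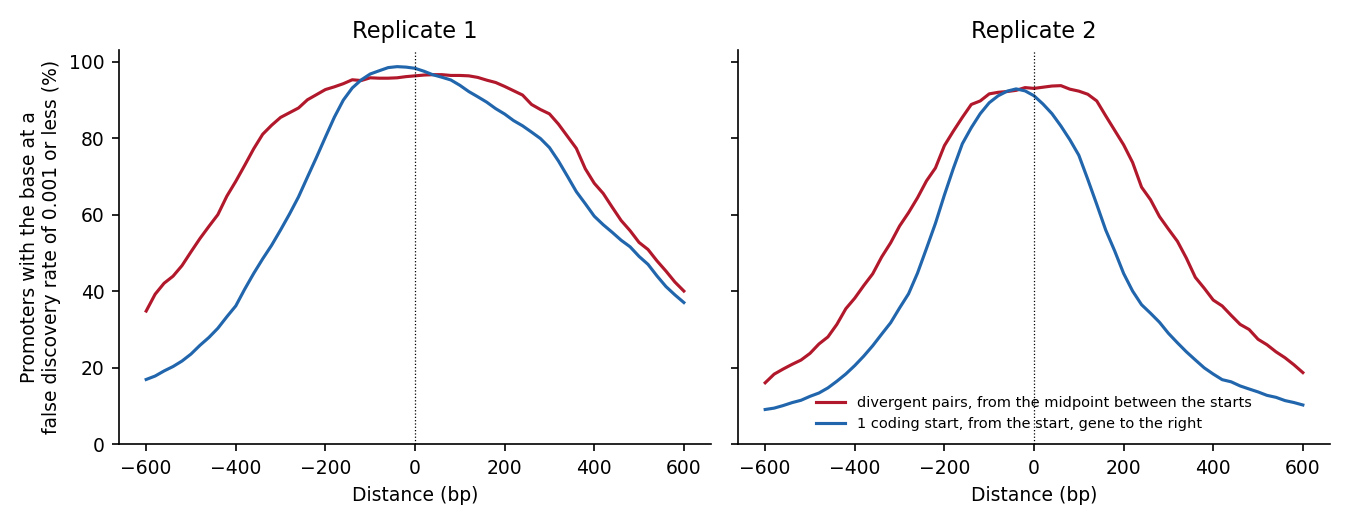
Share of promoters with a base at a false discovery rate of 0.001 or less (vertical) against distance in bp (horizontal), for divergent pairs from the midpoint between the starts (red) and for promoters with 1 start site from the start, with the gene to the right (blue), in replicate 1 (left) and replicate 2 (right). The red curve stays above 50% of its peak from -509 to 536 bp in replicate 1 and from -352 to 346 bp in replicate 2, and the blue curve from -335 to 498 bp and from -253 to 192 bp.

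The transcribed strand showed a base asymmetry on both sides. In the first 250 bp of a gene, G was more frequent than C on the coding strand in 72.4% of leftward and 72.0% of rightward genes, and in both genes of 514 pairs (52.7%). At promoters with 1 start site the share was 67.4% downstream and 47.5% upstream. These shares come from the reference sequence alone.

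The members held more matches of several promoter sequences than single-start promoters. Windows of 300 bp around each site were searched on both strands. The ETS site (CCGGAAG) was in 30.1% of members (interval 27.5 to 32.9%), in 16.9% of promoters with 1 start site and in 7.08% of all shared sites. The ZNF143/THAP11 site (ACTACAANT) was in 5.02%, 2.10% and 1.27%. TCTCGCGA, an element of housekeeping promoters, was in 4.01%, 1.90% and 0.734%. The YY1 site (AAGATGGCG) was in 5.57%, 3.46% and 1.39%, and the NRF1 site (GCGCATGCG) in 5.38%, 3.59% and 1.49%. The Wilson intervals of members and of promoters with 1 start site did not overlap for 4 of these, and for NRF1 they met, at 4.20% and 4.22%. In windows of 200 bp those of YY1 overlapped too, at 2.69 to 4.93% and 2.16 to 3.16%. At coding starts divergent from a noncoding start, the shares in 300 bp were 19.6% for ETS and 1.61% for ZNF143/THAP11. The intervals of both lay below those of members. For TCTCGCGA, YY1 and NRF1 this class had 3.03%, 3.73% and 4.14%, with intervals that overlapped those of members.

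For the other sequences, the Wilson intervals of members and of single-start promoters overlapped, which does not show that the shares were equal. The GC box was in 70.7% and 70.1%, with 31.4% over all shared sites. The CCAAT box was in 43.1% and 39.3%, with 32.4%. Its intervals, 40.2 to 46.0% and 37.7 to 40.8%, overlapped only at their ends, as those of NRF1 did. The cAMP response element (TGACGTCA, read by CREB) was in 5.38% and 4.10%, with 1.63%, and the E-box (CACGTG) in 11.3% and 10.6%, with 8.15%. Fewer members than sites in general held the TATA box (TATAAA), at 3.28% against 9.03% of all shared sites, or the AP-1 site (TGANTCA), at 2.28% against 12.2%. Promoters with 1 start site had 4.43% and 3.36% of these. The core of the CTCF site was in 0 of 1096 members, which allows a share of up to 0.274% by 3 counts and of up to 0.349% by the Wilson limit. It was in 0.308% of promoters with 1 start site, a difference not detectable at this number of sites, and in 3.94% of all shared sites. The median GC content was 62.8% at members and 52% at all shared sites, and its part in these shares was not tested. A match is a run of letters, not a shown binding site.

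**Figure D4:**
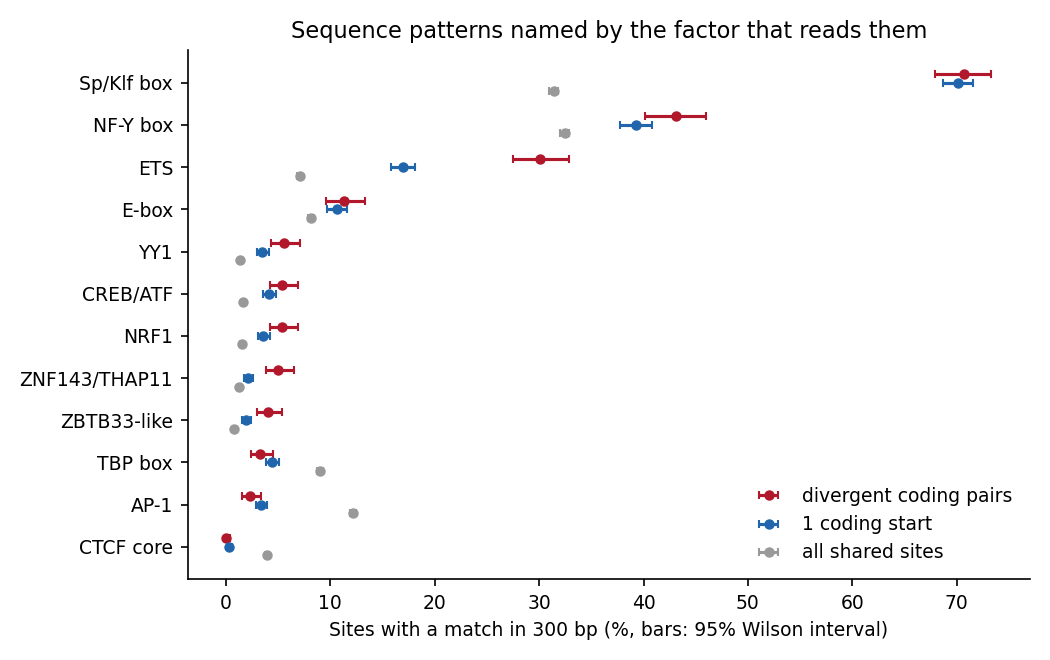
Percent of sites with a match in 300 bp (horizontal, bars are 95% Wilson intervals) for each sequence, named by the factor that reads it, at divergent coding pairs (red), promoters with 1 start site (blue) and all shared sites (grey). The ETS pair of points, 30.1% and 16.9%, is the widest apart in percentage points between divergent pairs and single starts.

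Some sequences lay in footprints far more often than others. Of 102 NRF1 matches at members, 93.1% lay at least 50% inside a footprint in replicate 1 and 87.3% in replicate 2. For the cAMP response element the shares were 83.6% and 90.2% of 61 matches, and for GC boxes 54.1% and 63.0% of 1645. For ETS matches the shares were 42.3% and 36.3%, for CCAAT boxes 26.8% and 24.8%, and for the ZNF143/THAP11 site 19.3% and 12.3%. At promoters with 1 start site the shares were 93.1% and 86.2% for NRF1 and 89.9% and 83.9% for the cAMP response element. GC boxes had 50.2% and 50.9% there, ETS 38.7% and 36.8%, CCAAT boxes 22.3% and 20.1% and ZNF143/THAP11 16.5% and 17.6%. The contrast among sequences was thus not particular to members, and shares over all shared sites were not computed. Overlapping matches were counted separately, and the 102 NRF1 matches lay in 59 members. The next 3 pairs were chosen after their values were seen to show such matches between the starts. The NRF1 site, the cAMP response element and TCTCGCGA are in capitals beside the CCAAT and GC boxes. Each of these 3 sites lay in a footprint in both mice, as the choice of the pairs fixes. Each pair is the highest that met this and limits on interval length, peak coverage and exons, so its height is set by the choice too.
Rps6kb1/Tubd1 (chr11:86544806-86544990): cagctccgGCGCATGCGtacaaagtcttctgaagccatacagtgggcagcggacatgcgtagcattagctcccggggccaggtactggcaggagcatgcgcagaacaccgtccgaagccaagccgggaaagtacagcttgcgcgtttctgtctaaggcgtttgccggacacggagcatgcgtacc
Gtf3c1/D430042O09Rik (chr7:125707781-125707887): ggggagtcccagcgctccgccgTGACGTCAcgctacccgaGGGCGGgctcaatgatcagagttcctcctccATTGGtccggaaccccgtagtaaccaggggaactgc
Med22/Rpl7a (chr2:26910678-26910763): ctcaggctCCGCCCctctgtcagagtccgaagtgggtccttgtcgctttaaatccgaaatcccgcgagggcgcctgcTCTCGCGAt

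Rps6kb1/Tubd1 pairs the S6 kinase of the mTOR pathway with delta-tubulin and had heights of 10.6 and 8.41. Gtf3c1/D430042O09Rik, the first a subunit of the RNA polymerase III factor TFIIIC, had 11.2 and 8.13. Med22/Rpl7a, a Mediator subunit and a protein of the large ribosomal subunit, had 10.7 and 9.19. In Med22/Rpl7a the TCTCGCGA match begins at position 78 of an interval of 86 bp, next to the Rpl7a start.

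Members with a CCAAT box were higher than members without one. Their median heights were 6.58 against 5.60 in replicate 1 and 4.79 against 3.05 in replicate 2 (472 and 624 members), and the members with it were higher in each of 5 GC bins in both mice. With an NRF1 site the medians were 7.65 against 5.92 and 4.78 against 3.62, and with a cAMP response element 7.30 against 5.93 and 5.06 against 3.64 (59 members each with the site). The ETS site, which had the largest excess in percentage points, went with almost the same height, 6.12 against 5.97 and 3.72 against 3.63. At promoters with 1 start site, those with an ETS site had 5.00 against 3.75 and 2.86 against 2.04, and the difference between these contrasts was not tested. Of 5 GC bins, members with an ETS site were higher in 1 in replicate 1 and in 2 in replicate 2.

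The count of different sequences followed the height as well. Among the CCAAT box, the GC box, ETS, NRF1, YY1 and the other activator sites counted, members with none (77) had medians of 4.29 and 2.52. Members with 2 (439) had 6.18 and 4.06, and those with 4 (29) had 8.41 and 6.02. At promoters with 1 start site the medians for none, 2 and 4 were 2.28 and 1.33, 5.10 and 2.88, and 6.73 and 4.74. Members were higher at each of these counts in both mice.

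Several lists of basic cell functions had more of their genes in divergent pairs than coding genes at large. Over all coding genes, 9.95% are in an annotated pair and 8.87% in a pair with a member. The largest share in annotated pairs was that of replication-type histone genes, which package newly made DNA, with 27 of 67 in a pair (40.3%, interval 29.4 to 52.3%). For DNA replication and repair it was 32 of 94 (34.0%), for the mitochondrial ribosome 26 of 78 (33.3%) and for the respiratory chain, ATP synthase and their assembly factors 32 of 97 (33.0%). The spliceosome followed with 15 of 47, chaperones with 26 of 91, the transcription machinery with 27 of 105 and aminoacyl-tRNA synthetases with 9 of 36. Proteasome genes had 11 of 50. In a pair with a member were 33.3% of mitochondrial ribosome genes, 32.0% of respiratory chain genes, 31.3% of histone genes and 30.9% of replication and repair genes, so by this count the histones did not lead. Cytosolic ribosome genes had 13 of 83 in a pair and vesicle sorting genes 14 of 134, with intervals that include the share of all genes. The lists were written with earlier results of these data known, and a gene's place in a pair comes from the annotation.

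**Figure D5:**
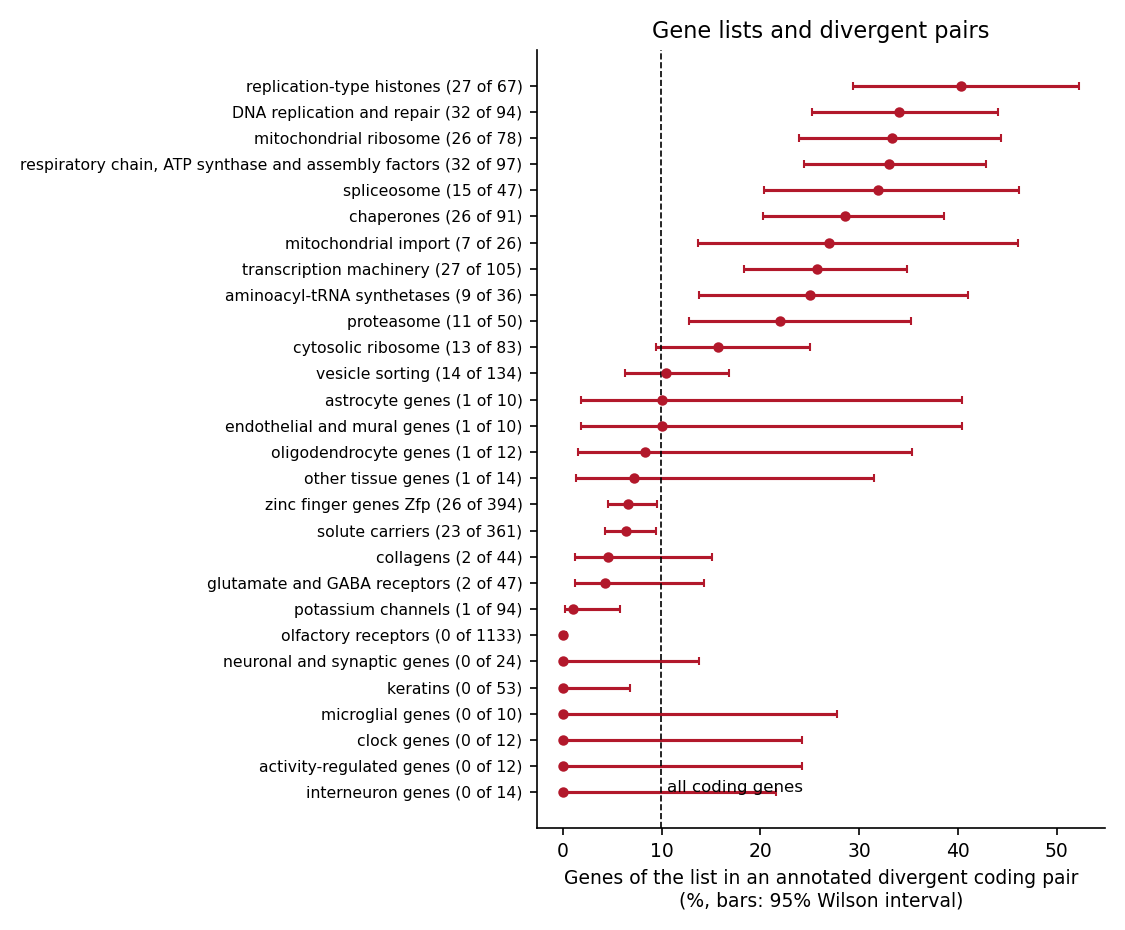
Percent of the genes of each list that are in an annotated divergent coding pair (points, with 95% Wilson intervals as bars; counts in brackets), with the dashed line at the share of all coding genes, 9.94% of gene symbols. Histone, repair and mitochondrial lists lie to the right of the line, and Zfp, solute carrier, potassium channel and olfactory receptor genes to the left.

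Other families and the cell type lists had fewer. Of 1133 olfactory receptor genes and of 53 keratin genes 0 were in a pair. Of 394 Zfp zinc finger genes there were 26, of 361 solute carriers 23 and of 94 potassium channel genes 1, Kcnab2. In 8 lists of cell type, activity and clock genes, 3 of 104 were in a pair (2.88%, interval 0.986 to 8.14%), and 0 in a pair with a member, although 61 had a shared site within 1 kb of a start (56.2% of all coding genes do). These 3 were Cspg4, a marker of oligodendrocyte precursors, beside Odf3l1, Pecam1, of endothelium, beside Milr1, and Glul, the glutamine synthetase of astrocytes, beside Teddm2. Gabra4/Gabrb1, the only pair with both genes among the glutamate and GABA receptors, encodes subunits of GABA-A receptors, with starts 132 bp apart and a peak of 3.34 and 1.07. Of 14 genes of other tissues 1 was in a pair (interval 1.27 to 31.5%), Nphs1 in Kirrel2/Nphs1, where both genes encode slit-diaphragm proteins of the kidney and the peak was 2.05 and 1.07.

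Within gene lists the gap between divergent and other promoters was smaller for some. Over all coding genes with a shared site, the highest site of those in pairs was 1.36 and 1.57 times as high as that of genes outside pairs. For respiratory chain genes the ratio was 0.94 and 0.95 (31 genes in pairs, 56 not), with medians of 5.60 and 3.37 in pairs and 5.96 and 3.53 outside. For the mitochondrial ribosome it was 1.22 and 1.19, for cytosolic ribosome genes 1.06 and 1.18 and for the proteasome 1.04 and 1.19. DNA replication and repair genes had 1.30 and 1.89, chaperones 1.16 and 1.73, and Zfp genes 1.59 and 1.45. Aminoacyl-tRNA synthetases, mitochondrial import genes and histones changed sides between the mice, with 1.19 and 0.891, 0.789 and 1.08, and 0.871 and 1.21.

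Among repair and replication genes, Atm/Npat was highest. Atm is the kinase that signals DNA double-strand breaks and Npat drives histone gene transcription. Its peak was 13.8 in replicate 1 and 7.86 in replicate 2, with starts 307 bp apart. Mcm4/Prkdc joins a subunit of the replicative helicase to the DNA-dependent protein kinase and had 8.88 and 10.1. Desi1/Xrcc6, the second encoding Ku70, had 9.61 and 7.91. Of chaperone genes, Tbccd1/Dnajb11 had 12.4 and 10.2, Hsp90b1/Ttc41 11.8 and 9.41 and Pradc1/Cct7 10.7 and 10.2. Mrpl18/Tcp1, a mitochondrial ribosomal protein and a chaperonin subunit 37 bp apart, had 9.64 and 9.51. These are among the highest pairs of their lists, as the naming rule fixes, and all of them stood above the upper quartile of members. The lowest of the repair and chaperone lists, chosen after their values were seen, were those of Pole, a DNA polymerase subunit, with 2.09 and 1.36, and Hspb2, a small heat shock protein, with 1.84 and 1.07.

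The highest pairs of the mitochondrial lists were the following. Mrps18b/Ppp1r10 had 9.84 and 9.49, Klc4/Mrpl2 9.94 and 7.35 and Mrpl49/Fau 10.03 and 5.99. Tepsin/Ndufaf8, the second an assembly factor of complex I, had 11.8 and 7.46. Cbarp/Atp5d, a calcium channel regulator and a subunit of ATP synthase, had 9.61 and 5.17. Esf1/Ndufaf5 had 9.70 and 4.93 and Wdr4/Ndufv3 7.40 and 7.00. Sdhd/Timm8b pairs a subunit of succinate dehydrogenase with an import chaperone 98 bp away and had 5.60 and 4.67. Arfip2/Timm10b had 6.25 and 6.49. Within a single list, Mrpl46/Mrps11 was the only annotated pair of 2 mitochondrial ribosome genes, and the respiratory chain list had 0, while pairs across lists, such as Mrps12/Sars2, are not counted here.

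Other lists gave further high pairs, by the choice of the highest. Of cytosolic ribosome genes, Rpl9/Lias had 9.37 and 6.99, Sphk2/Rpl18 8.65 and 7.68 and Rpl15/Nkiras1 8.73 and 7.13. Mrpl32/Psma2 had 9.44 and 5.81 and Ftsj3/Psmc5 7.57 and 5.20, each with a proteasome gene second. Qpctl/Snrpd2, the second encoding a core protein of spliceosomal particles, had 7.86 and 7.02. At Snrpa/BC024978, where Snrpa encodes a protein of the U1 spliceosomal particle, replicate 2 was higher, 6.57 against 10.2. Serac1/Gtf2h5 had 9.35 and 5.15 and Lyrm4/Fars2 8.27 and 3.43. Zfp654/Cggbp1, with a zinc finger gene, had 11.1 and 10.8. Eif2b4/Snx17, with a vesicle sorting gene second, had 12.7 and 9.18, and Cdk5/Slc4a2, a neuronal kinase and an anion exchanger, 10.4 and 11.1.

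Histone pairs had lower peaks than most lists in replicate 1. Most are pairs of an H2A and an H2B gene in the Hist1 cluster, and 13 pairs had both genes in the list. The highest, Hist1h2bf/Hist1h2ad, had 4.33 and 6.78 with starts 185 bp apart, and Hist1h2ag/Hist1h2bj 3.51 and 4.06. Both were higher in replicate 2. The median over the 21 histone genes in a pair with a member was 2.99 and 2.94, as against 6.31 and 4.01 over all genes in such pairs. In replicate 2, the medians of Zfp genes (3.04) and aminoacyl-tRNA synthetases (3.28) were near that of histones, and the pair of GABA receptor genes was lower, at 1.07. Histone genes with a shared site outside pairs had 3.43 and 2.51. Near-identical copies of these genes share sequence, so reads can be hard to place among them.

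Several divergent pairs are textbook examples. Of 18 listed pairs, 15 are annotated within 1000 bp in opposite directions and all 15 had a member, where the background over annotated pairs is 89.1%. The others, among them Ppat-Paics and Col4a1-Col4a2, are in the annotation but not within this distance by their coding starts. Heights of the 15 ran from 4.39 to 13.8 in replicate 1 and from 2.65 to 10.8 in replicate 2. Hspd1/Hspe1, the mitochondrial chaperonin and its cofactor 108 bp apart, had 8.07 and 5.50. Brca1/Nbr1 had 7.00 and 8.65, but its highest peak lay 677 and 667 bp to the right of the midpoint of the closest starts. It covered neither of these starts in either mouse, and the same held for Gart/Son, Sirt3/Psmd13 and Psmb9/Tap1 below. Pdcd10/Serpini1, the second encoding neuroserpin, had 7.63 and 10.8. Ranbp1/Trmt2a had 10.5 and 7.21, Mrps12/Sars2 7.08 and 6.34, Gart/Son 7.94 and 5.08 and Sirt3/Psmd13 6.67 and 4.13. Lower down were Psmb9/Tap1, of antigen processing, with 5.73 and 3.85, Hars/Hars2 with 4.78 and 2.96 and Surf1/Surf2 with 4.39 and 2.65. The intervals of 2 of them that hold no exon follow, shown since the pairs are well studied, and capitals mark GC boxes.
Psmb1/Tbp (chr17:15499752-15499887): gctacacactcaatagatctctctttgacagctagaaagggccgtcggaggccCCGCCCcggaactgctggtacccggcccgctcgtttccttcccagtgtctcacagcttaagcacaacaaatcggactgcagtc
Hadha/Hadhb (chr5:30155163-30155247): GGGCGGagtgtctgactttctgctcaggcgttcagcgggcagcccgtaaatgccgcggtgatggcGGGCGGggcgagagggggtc

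Psmb1/Tbp, a proteasome subunit and the TATA-binding protein, had 8.16 and 7.32, and its GC box lay in a footprint in both mice. Hadha/Hadhb encode both subunits of the mitochondrial trifunctional protein and had 6.11 and 2.83. Of its 2 GC boxes, the one beside the Hadha start lay in a footprint in both mice and the other in neither.

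Replicate 1 was higher at most members. This held at 977 of 1096 (89.1%), where the background over all shared sites is 79.4%. The median log2 ratio of replicate 2 to replicate 1 was -0.65 at members, -0.75 at promoters with 1 start site and -0.46 at all shared sites. Heights in the mice had a Spearman correlation of 0.816 over the members, given as a description since the sites share their library and base composition. The ratio moved with GC content, from a median log2 of -0.25 at 142 members of at most 55% GC to -1.23 at 143 members above 70%. All shared sites gave -0.28 and -1.28 in these bins. The part of GC content in the differences at single pairs was not tested.

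Pairs that differed most between the mice lay at the ends of this range. Chtf8/Utp4 had 5.19 in replicate 1 and 1.07 in replicate 2, under each of 2 gene identifiers of Chtf8, a subunit of an alternative clamp loader. Tada2a/Acaca, a histone acetyltransferase adaptor and acetyl-CoA carboxylase, had 3.98 and 0.901, Pigw/Myo19 3.68 and 0.874 and Zdhhc3/Exosc7 6.67 and 1.68. Their GC content was 70.2% to 77.4%. Higher in replicate 2 were Ccdc146/Fam185a with 3.17 and 5.80, H2-T22/Gm6034 with 0.949 and 1.59, Tbc1d10b/Mylpf with 3.64 and 5.99, Rnf5/Agpat1 with 6.88 and 11.1 and Ranbp10/Tsnaxip1 with 5.51 and 8.69. Their GC content was 48% to 55.8%. H2-T22 belongs to a family of close copies and lies in the major histocompatibility region.

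The X chromosome held 22 pairs with a member, and males carry 1 copy of it. Their median height was 3.15 and 2.35, as against 6.39 and 4.06 at the 954 autosomal pairs, or 0.494 and 0.579 times. Promoters with 1 start site had X to autosome ratios of 0.486 and 0.60, so in each mouse the ratio differed little between the classes.

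Annotated pairs without a member numbered 120. In 82 of them no peak of any list overlapped the interval, in 20 replicate 1 alone and in 4 replicate 2 alone had a peak of the shorter list, and 14 had peaks of the longer list only. Bases at a false discovery rate of 0.001 or less lay in 45 of the 120 intervals in replicate 1 and in 17 in replicate 2. CpG observed over expected was below 0.6 at 64.2% of them, as against 5.43% of the pairs with a member. It was taken around the midpoint of the closest starts at pairs without a member, but around the highest site at pairs with one. In 40 of the 120 pairs both genes had a shared site near another start, in 25 one gene had, and in 55 neither did. The share of pairs with a member, 89.1%, is what the rule itself counts. The 20.3% of promoters with 1 start site is not its counterpart, since a single start was searched over 117 bp and a pair over its widest interval of up to 1000 bp.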

How the data were processed

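DNase-seq of the left cerebral cortex was measured in 2 mice of 1 group, 1 library each. The authors' deposited lists on mm10, 1 set per library with the mice not pooled, were used: 2 peak lists, footprints, and false discovery rates of the cut rate. The sources used here do not name the aligner, the callers or their versions. The deposited peak height is a signal of unstated normalization. All of 400 checked heights per library lay within 0.02 of a whole multiple of 1 step, so heights were read as cuts scaled to depth, inferred as 160.1 and 145.4 M cuts. The deposited rates are q-values, listed up to 0.05. The deposited footprint score was 0.01 throughout, and only footprint positions were used. Peaks of the shorter lists (72021 and 59150) were merged where they overlapped or touched.

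A start site was the 5′ end of a protein-coding transcript of a protein-coding gene in GENCODE M21. A member overlapped by at least 1 bp the widest interval of at most 1000 bp between 2 divergent starts of a gene pair, and a pair's height is that of its highest member. A footprint was counted in a site with at least 50% of its length. CpG and GC content were taken over 500 bp and sequence patterns over 300 bp around the site. Intervals on shares are 95% Wilson intervals. Computations used Python 3.11.15, NumPy 2.4.6 and pandas 2.3.3, with figures from matplotlib 3.10.9, and were tested on simulated peaks. No test across animals can be made.

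The members, gene lists and sequence patterns were chosen with earlier results of these data known. Pairs named are the 10 highest and 5 lowest by mean height, the 5 that differ most between the mice in each direction, the 3 closest and 3 farthest, the classic pairs, pairs with a gene of the cell type, activity or clock lists, and up to 4 by height of each other list. A few of the pairs this rule names are not reported here. Alternatives for the peak list, overlap, starts, distance and comparison promoters were computed. The comparisons with promoters of 1 gene, with noncoding partners and with pairs of single starts were added after the data were seen, as were the GC bins.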

Additional observations from a re-analysis of the deposited data

How the results depend on the processing

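Over 14 alternatives, members were higher than promoters with 1 start site in all 14, by 1.35 to 1.95 times, beside 1.59 as reported. The values that moved by more than the SD of the mice were 1.35 with the higher 50% of the peaks by height, 1.44 with a reciprocal overlap of 50%, 1.46 with only the outermost start of each gene, 1.76 with 1000 bp upstream of single starts, 1.86 with the longer peak list and 1.95 with all transcripts of coding genes. With 1 mouse alone it was 1.62 to 1.72, and the 1.72 without replicate 2 moved by more than that SD too. The share of pairs with a member was 90.7% with the longer list, 86.8% with the higher peaks, 80.4% with reciprocal overlap, 90.3% with outermost starts, 87.2% with all transcripts and 77.7% among pairs with 1 start combination, and 89.1% to 90.7% with 1 mouse alone.

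The difference in footprint share, -0.41 percentage points on the mean of the mice, turned positive with the longer list (1.03), outermost starts (0.060), starts at most 500 bp apart (0.064), the 1000 bp stretch (1.11), promoters of 1 gene (0.380) and pairs with 1 start combination (0.484); with 1 mouse alone it was -1.12 to -0.39. The cause was not tested. The share of members with a footprint was 97.6%, 99.2%, 98.6%, 98.9%, 98.0%, 98.9% and 99.3% with the longer list, the higher peaks, reciprocal overlap, outermost starts, all transcripts, 500 bp and 1 start combination, and 95.7% to 96.4% with 1 mouse. Median CpG observed over expected was 0.836, 0.842, 0.844, 0.845, 0.854 and 0.828 with these in the same order, all transcripts aside, and 0.829 to 0.832 with 1 mouse. A window of 200 bp instead of 300 bp lowered the shares with a match to 1.92% for the TATA box, 35.8% for the CCAAT box, 61.2% for the GC box, 24.3% for ETS, 3.65% for YY1 and 8.76% for the E-box.

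Counts of members and pairs, member height, width ratio and the ratio between the mice stayed within 1.5 times or within the SD under each alternative that gave them. For the ratio between the mice this SD was taken over members (0.529), not over mice. For member height it was 1.65 beside a height of 4.85, so staying within it is a weak limit. With 2 mice an SD over mice is itself poorly known, and the ratio between the mice has no value with 1 mouse. No paired analysis was possible because both mice belong to 1 group. Peaks below a list's threshold have no height, so the classes are compared only where both mice had a peak.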
